A study of Drosophila melanogaster with 12 samples.

Results

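Glia of *nonstop* mutant larvae were compared with wild-type glia by RNA-seq of nuclear RNA, and the comparison rests on 4 *nonstop* and 4 wild-type libraries of the 12 in the series. The other 4 libraries come from *sgf11* mutant glia, which lack another subunit of the same enzyme module and share the wild-type libraries as their control. All libraries of the labelled genotypes were used, and the genes described are the 9966 with over 1 CPM (a gene's counts relative to all gene counts of its library, with the library size adjusted by edgeR's TMM factors for the levels given) in at least 4 libraries. Every larva carried *repo*-GAL4, which is active in glia, and the transgene UAS-GFP-Msp300KASH at the attP2 site, which puts GFP on the outer surface of nuclei, in a *w* background. The *nonstop* larvae were homozygous for not02069, a PZ transposon insertion that itself carries a *rosy* transgene (ry+t7.2), and their chromosome also held the *rosy* allele ry506. The *sgf11* larvae were homozygous for e01308, a piggyBac insertion in the gene then called CG13379. The wild-type larvae had the labelling transgenes over the balancer TM3, which is marked with Sb1. Each mutant is 1 allele, present in all cells of the larva and not only in glia, each library pools many dissected eye-brain complexes of wandering larvae, and the glial nuclei were enriched by affinity to the GFP tag.

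Nonstop is the ubiquitin protease of the deubiquitinase module of SAGA, a transcription coactivator that also holds the histone acetyltransferase Gcn5. The module, which contains Sgf11, E(y)2 and Ataxin-7 beside Nonstop, removes ubiquitin from histone H2B, a mark set by the ligase Bre1 and linked to transcription elongation. Glia of the larval brain and eye disc wrap axons, seal the blood-brain barrier with septate junctions, take up transmitters and guide photoreceptor axons, and *nonstop* is known for the failure of these axons to stop at their target layer.

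The *nonstop* transcript (*not*, FBgn0013717) had 11.1, 9.45, 9.09 and 9.52 CPM in the *nonstop* libraries, against 19.8, 15.8, 14.4 and 19.0 CPM in the *sgf11* libraries and 28.14, 29.4, 25.7 and 24.0 CPM in the wild-type libraries. All 4 *nonstop* libraries lay below every other library, and the *sgf11* libraries lay between the other groups. The log2 fold change over wild type was -1.45 (SE 0.13, FDR = 1.5e-07, edgeR's quasi-likelihood test with Benjamini-Hochberg adjustment, used for all FDR values here). The direct difference between *nonstop* and *sgf11* was -0.82 on the log2 scale (FDR = 0.0013). *Atxn7*, the Ataxin-7 gene, was slightly lower in *nonstop* glia than in wild-type glia (log2 fold change -0.46, SE 0.13, FDR = 0.0064). *Sgf11* at 3.55 to 4.59 CPM in *nonstop* glia and 3.09 to 6.21 CPM in wild-type glia did not pass the test (log2 fold change -0.28, SE 0.27, FDR = 0.41). *e(y)2*, the E(y)2 gene, stayed under 1 CPM in every library and was not tested.

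Libraries held 7763472 to 11358569 gene counts for *nonstop*, 6913032 to 9824114 for *sgf11* and 8535880 to 11459317 for wild type. Mitochondrial transcripts took 11.67 to 16.07% of gene counts in *nonstop*, 12.49 to 19.94% in *sgf11* and 10.95 to 13.06% in wild-type libraries. The summed level of 13 glial marker genes was 5800 to 8490 CPM in *nonstop*, 6140 to 9340 CPM in *sgf11* and 5740 to 6570 CPM in wild-type libraries. Defining glial markers were present in every group, and *repo*, which encodes the glial homeodomain factor, had 104.2 to 141 CPM in *nonstop* and 133 to 159 CPM in wild-type libraries (log2 fold change -0.29, FDR = 0.071). The 11 neuronal markers summed to 1030 to 1220 CPM in *nonstop*, 929 to 1150 CPM in *sgf11* and 730 to 927 CPM in wild-type libraries, and 8 of the 11 were called higher in *nonstop*. The neuronal marker *elav* was not among those called (log2 fold change 0.305, FDR = 0.049, and -0.024 in *sgf11*), and its *nonstop* and wild-type libraries overlapped. The 6 neuroblast markers summed to 76.3 to 101 CPM in *nonstop*, 72.3 to 105 CPM in *sgf11* and 110 to 123 CPM in wild-type libraries. Of 6 photoreceptor markers, 5 were matched, and *boss*, *ninaE* and *sens* were under 1 CPM in both mutants, and the hemocyte marker *He* was under 1 CPM in every group. The part of these cells in the results below was not tested, and in RNA of pooled nuclei fewer cells of a type and less RNA per cell cannot be told apart.

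Loss of *nonstop* went with different transcript levels of 3561 of the 9966 genes (35.7%) at an FDR under 0.01, with 1862 higher (18.7%) and 1699 lower (17.0%). The spread behind these tests is that between biological replicate pools of larvae, not between single animals. The split depends on the scaling of the libraries. With library size alone it was 1326 higher and 2020 lower, and with normalization factors from the more abundant genes alone it was 2387 higher and 1086 lower. Over all genes the median was 0.006 on the log2 scale as reported, and these scalings moved it by -0.126 and 0.146. The *nonstop* and wild-type libraries did not overlap at all for 4272 genes (42.9%). Changes over 2-fold numbered 1091 higher and 390 lower.

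Proteasome genes fell as a whole. Of the 31 proteasome subunit genes tested, all 31 fell in *nonstop* glia, against a background of 17.0% of all genes, with a median log2 fold change of -1.21 and a range from -1.60 for *Rpn3* to -0.68 for *Rpt1*. *Rpn3*, a subunit of the regulatory lid, had 44.2, 64.5, 38.4 and 43.6 CPM in *nonstop*, 55.7, 66.6, 58.2 and 57.1 CPM in *sgf11* and 155, 135, 146 and 140 CPM in wild-type libraries (FDR = 4.5e-08). *Rpn12*, another lid subunit, had 14.8, 19.2, 12.9 and 14.8 CPM in *nonstop*, 24.7, 23.2, 21.6 and 19.4 CPM in *sgf11* and 48.4, 35.6, 35.7 and 38.9 CPM in wild-type libraries (log2 fold change -1.36, SE 0.14, FDR = 5.3e-07). For both genes each *nonstop* library lay below each wild-type library. This held for all 31 subunits, and for 2100 of all 9966 genes. The median log2 fold change in *sgf11* over wild type was -0.86, with 30 of 31 called lower. Between the mutants, the log2 fold change of *nonstop* over *sgf11* was below 0 for 31 of 31 subunits with a median of -0.33, while the median over all genes was -0.014. None of these 31 direct differences passed an FDR of 0.01 in the quasi-likelihood test, where 1.28% of all genes were called lower, 20 had an unadjusted p under 0.05, and DESeq2 and edgeR's exact test called 1 each.

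Genes that act before the proteasome followed the same direction with smaller changes. Of 19 genes for ubiquitin, its conjugation and the p97 segregase, 10 fell and 1 rose in *nonstop* (median log2 fold change -0.46). These are 52.6% and 5.3%, against 17.0% and 18.7% of all genes. The genes that fell include *Plap* (-1.002) and *p47* (-0.72), whose products are cofactors of p97, the conjugating enzyme gene *Ubc4* (-0.67) and the activating enzyme gene *Uba1* (-0.53). The gene that rose was *Ubc6* (0.33), which encodes the conjugating enzyme that works with Bre1 on H2B. Ubiquitin itself comes from several genes, and they differed. The polyubiquitin gene *Ubi-p5E* had 33.9, 34.2, 35.2 and 41.0 CPM in *nonstop*, 58.1, 72.8, 73.3 and 60.7 CPM in *sgf11* and 89.1, 82.4, 55.6 and 65.3 CPM in wild-type libraries. Its *nonstop* libraries lay below all others, while the *sgf11* and wild-type libraries overlapped (log2 fold change in *sgf11* -0.14, 95% interval -0.43 to 0.14). The other polyubiquitin gene, *Ubi-p63E*, had 86.1 ± 5.603 CPM in *nonstop*, 101 ± 17.6 CPM in *sgf11* and 75.3 ± 8.88 CPM in wild-type glia (SD, n = 4 each), and its log2 fold change of 0.19 in *nonstop* did not pass the test (FDR = 0.19). *RpL40* and *RpS27A*, which encode ubiquitin fused to a ribosomal protein, had log2 fold changes of -0.02 and -0.01.

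Of 26 deubiquitinase genes other than *not*, 14 fell in *nonstop* glia (53.8%, against 17.0% of all genes), with a median log2 fold change of -0.37. In *sgf11* glia 15 fell, against 14.1% of all genes. The *nonstop* count was 6 to 16 over the alternatives and 10 to 14 over the scalings alone. Here and below, the alternatives include a filter at a mean log2 CPM of 4.5, which leaves members of low level untested. *Usp5* encodes a protease of free ubiquitin chains and had 14.9, 12.7, 8.81 and 9.18 CPM in *nonstop*, 14.9, 13.3, 13.6 and 14.2 CPM in *sgf11* and 37.5, 28.6, 26.3 and 25.7 CPM in wild-type libraries (log2 fold change -1.38, SE 0.17, FDR = 3.4e-06). The mutant libraries of this gene overlapped each other and lay below all wild-type libraries. *Usp14* (-0.97) and *Uch-L5* (-0.77), whose products act on the proteasome, also fell.

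Genes of protein folding went in both directions. All 7 tested subunit genes of the cytosolic chaperonin TRiC fell in *nonstop* glia (median log2 fold change -0.76), as did 5 of 7 in *sgf11* glia (median -0.58). *CCT5* had 105, 91.3, 89.5 and 82.1 CPM in *nonstop*, 110, 113, 99.4 and 102 CPM in *sgf11* and 214, 210, 172 and 194 CPM in wild-type libraries (log2 fold change -1.10, SE 0.10, FDR = 1.5e-07). Of 22 genes of the unfolded protein and integrated stress responses, 11 fell and 3 rose. Those that fell include the endoplasmic reticulum chaperones *Calr* (-1.18), *Gp93* (-1.04), *ERp60* (-1.03) and *Hsc70-3* (-0.76) and the degradation factors *Edem2* (-0.75) and *Hrd3* (-0.58). Those that rose were the sensors *Atf6* (0.49) and *Ire1* (0.52) and the translation inhibitor *Thor* (0.95). Heat shock genes went both ways, with 10 of 24 higher (41.7%, against 18.7% of all genes) and 6 lower (25.0%, against 17.0%). The small heat shock gene *Hsp27* had 138, 178, 186 and 219 CPM in *nonstop*, 209, 206, 172 and 114 CPM in *sgf11* and 783, 750, 696 and 545 CPM in wild-type libraries (log2 fold change -1.94, SE 0.17, FDR = 1.9e-07). Its mutant libraries overlapped each other and lay below all wild-type libraries.

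The inducible Hsp70 genes encode cytosolic chaperones of the heat shock response, and their copies are given one by one. *Hsp70Bc* had 42.8, 52.4, 85.2 and 77.5 CPM in *nonstop*, 20.5, 22.0, 23.3 and 13.3 CPM in *sgf11* and 9.83, 14.4, 16.5 and 15.3 CPM in wild-type libraries. *Hsp70Ba* averaged 0.474 ± 0.145 CPM in *nonstop*, 2.66 ± 1.24 CPM in *sgf11* and 0.672 ± 0.138 CPM in wild-type glia (SD, n = 4 each). *Hsp70Bc* was thus highest in *nonstop* and *Hsp70Ba* highest in *sgf11*, and both differed between the mutants (log2 fold change of *nonstop* over *sgf11* 1.71, FDR = 7.9e-05, and -2.48, FDR = 0.0017). These copies are near identical in sequence. The paper used HTSeq's union mode with default parameters, in which a read that fits more than 1 copy counts for none. The levels thus rest on reads placed on 1 copy, and how well these were placed was not tested. The noncoding heat shock RNA *lncRNA:Hsromega*, chosen after its values were seen, had 18710, 19990, 37230 and 32560 CPM in *nonstop*, 16600, 24620, 26580 and 14770 CPM in *sgf11* and 4632, 5864, 5774 and 6925 CPM in wild-type libraries. Every mutant library was above every wild-type library.

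**Figure D1:**
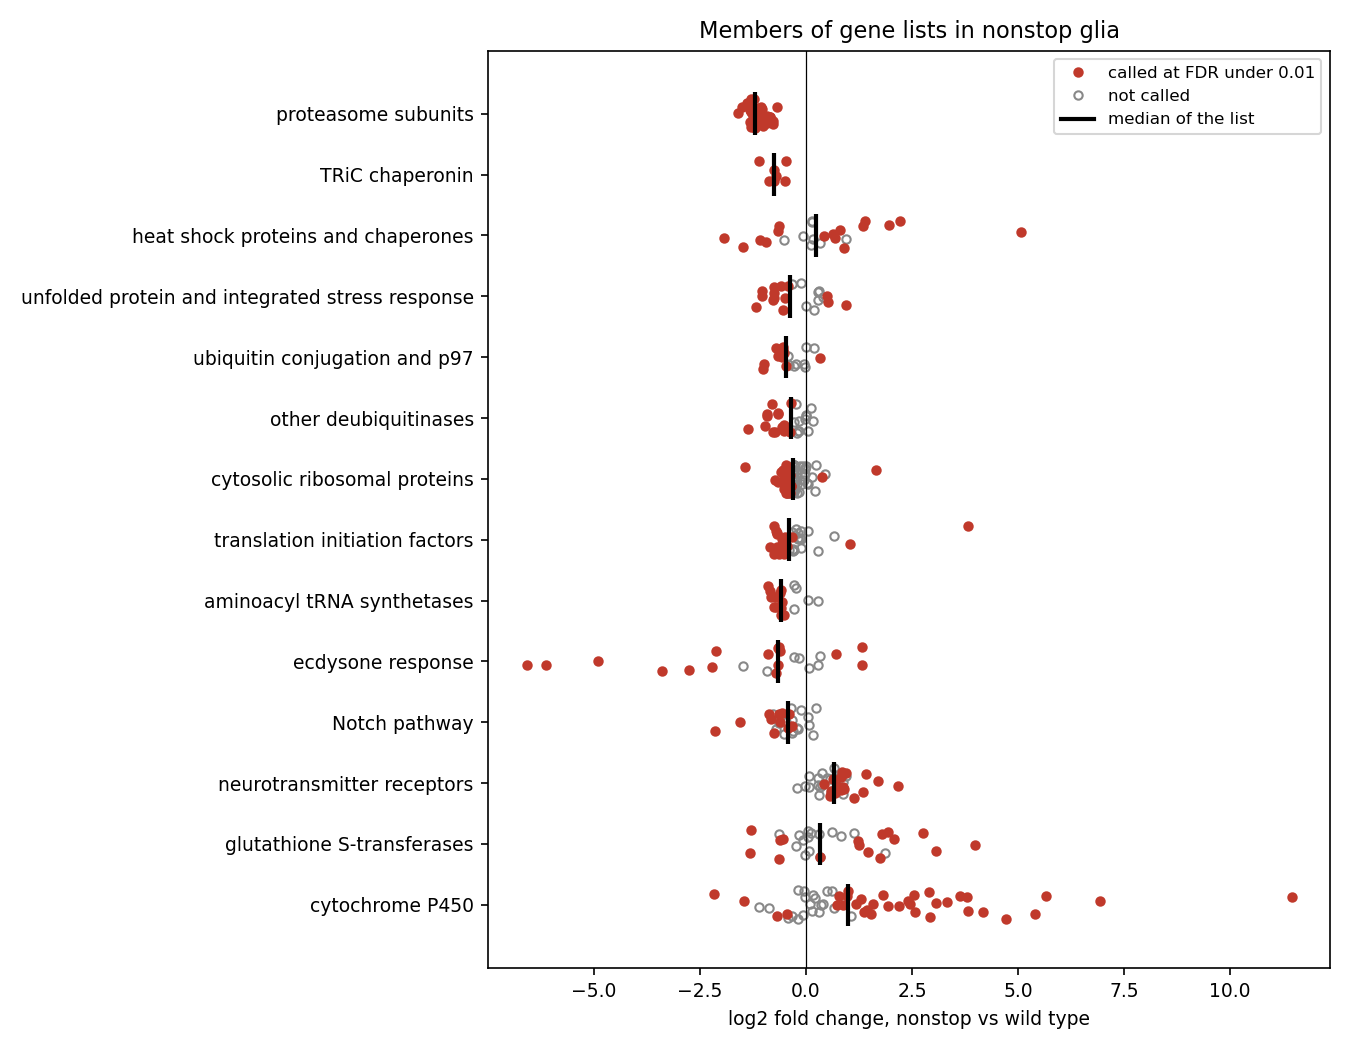
Log2 fold change of *nonstop* over wild type (horizontal axis) for each tested member of 14 gene lists (rows). Filled points passed an FDR of 0.01, open points did not, and the bar is the list's median. All 31 proteasome genes lie below 0, between -1.60 and -0.68, while the cytochrome P450 genes spread widely around a median of 0.98.

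Genes of the translation machinery were called lower more often than higher, beside 17.0% lower and 18.7% higher over all genes. Of 17 cytosolic aminoacyl tRNA synthetase genes, 12 fell (median log2 fold change -0.58), led by *ValRS* (-0.91), *MetRS* (-0.85) and *AsnRS* (-0.83). Of 37 translation initiation factor genes, 19 fell and 2 rose (median -0.40). *eIF2alpha*, a subunit of the factor that brings the initiator tRNA, had 51.3, 52.9, 49.8 and 51.7 CPM in *nonstop*, 59.0, 65.1, 63.8 and 65.7 CPM in *sgf11* and 97.7, 96.8, 85.8 and 89.6 CPM in wild-type libraries (log2 fold change -0.85, SE 0.08, FDR = 4.6e-07). The 3 groups did not overlap for this gene, and *nonstop* was lowest. Of 77 cytosolic ribosomal protein genes, 27 fell and 2 rose in *nonstop* (median -0.32), against 7 lower and 3 higher in *sgf11* (median -0.23). The number that fell in *nonstop* ranged from 5 to 49 across the alternative settings. In the direct comparison of the mutants 67 of the 77 had a log2 fold change below 0, none passed an FDR of 0.01 by the quasi-likelihood test, DESeq2 or the exact test, and 6 had an unadjusted p under 0.05. Mitochondrial ribosomal protein genes hardly entered the calls, with 3 of 66 lower.

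**Figure D2:**
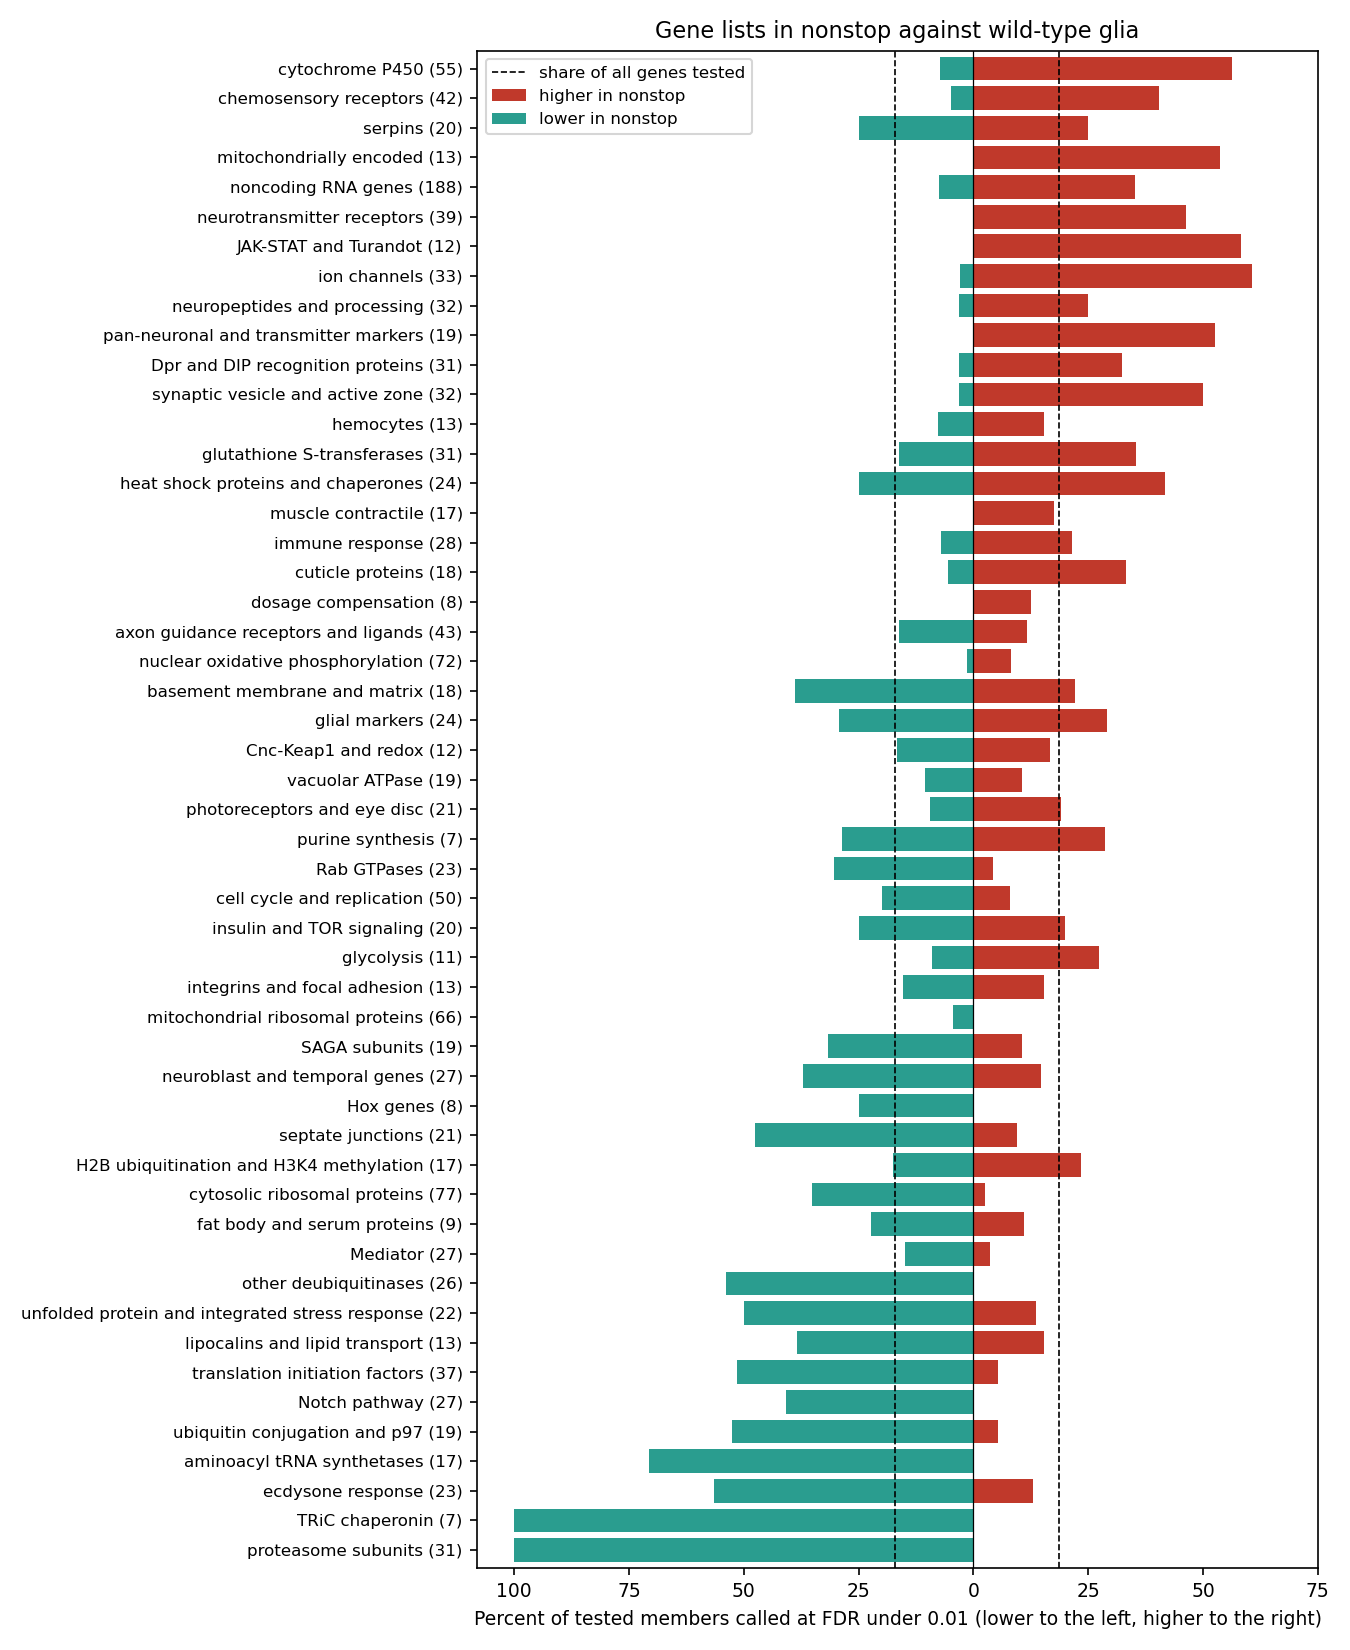
Percentage of the tested members of each gene list (rows) called higher or lower in *nonstop* over wild type (horizontal axis, percent). Dashed lines mark the share of all 9966 genes, 18.7% higher and 17.0% lower. Proteasome and TRiC genes were all called lower, and ion channel, P450 and JAK-STAT genes were mostly among those called higher.

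Of 19 SAGA genes, *not* itself included, 6 fell and 2 rose in *nonstop* glia (median log2 fold change -0.26), against 17.0% and 18.7% of all genes. The genes that fell beside *not* and *Atxn7* were *Taf9* (-1.16), *Taf10b* (-0.90), *Spt20* (-0.41) and *Sf3b3* (-0.39), and those that rose were *Ada2b* (0.55), which encodes an adaptor of the acetyltransferase module, and the scaffold gene *Nipped-A* (0.52). With genes of low mean level left out, the list no longer had more lower than higher members. Among 17 genes for the writing of H2B ubiquitin and H3K4 methylation, 4 rose and 3 fell, a balance that turned in 17 of the alternative settings. These shares of 23.5% and 17.6% are near the 18.7% and 17.0% of all genes. The lowest was the methyltransferase gene *trr*, with 139, 138, 61.5 and 42.2 CPM in *nonstop*, 181, 98.8, 93.5 and 112 CPM in *sgf11* and 403, 439, 252 and 294 CPM in wild-type libraries (log2 fold change -1.87, SE 0.31, FDR = 0.00011). Its libraries varied within each group but did not overlap between the mutants and wild type.

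Genes changed in *nonstop* and not in *sgf11* were sought by their values. A gene was taken as selective for *nonstop* where it was called against wild type, was called against *sgf11* in the same direction, was not called in *sgf11* against wild type and had a log2 fold change there within 0.5 of 0. These are 37 genes (0.371% of those tested), 22 higher and 15 lower. The calls chose them, so their values are a description. Just inside the limit in *sgf11* lay *Hsp70Bc* (log2 fold change in *sgf11* 0.50) and *DAT* (0.42), and just outside it *Ctns* (-0.50, which was called in *sgf11*) and *Lerp* (0.51). A missed call in *sgf11* does not show that a gene was unaffected there, so the 95% interval of its *sgf11* fold change is given for many of the genes named. Of the 37 genes, 15 overlap another annotated gene and 13 a tested one. In the union mode named above, a read on exons of both genes counts for neither. Because the counting ignored strand, other reads of a partner may have counted for the gene, and how many did was not tested.

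Among the selective genes that were lower in *nonstop*, *Lasp* had the largest change. *Lasp* (FBgn0063485, chromosome arm 3L) encodes an actin-binding protein and had 2.08, 1.25, 2.48 and 4.68 CPM in *nonstop*, 24.0, 25.0, 22.4 and 20.7 CPM in *sgf11* and 24.4, 31.1, 22.9 and 22.1 CPM in wild-type libraries. All *nonstop* libraries lay far below the rest, and the *sgf11* and wild-type libraries overlapped. Its log2 fold change was -3.17 (SE 0.25) in *nonstop* and -0.12 (95% interval -0.53 to 0.28) in *sgf11*. *Timp*, the inhibitor of matrix metalloproteinases (FBgn0025879, arm 3R), had 18.0, 23.8, 17.5 and 15.8 CPM in *nonstop*, 57.8, 61.7, 58.5 and 45.4 CPM in *sgf11* and 76.3, 70.0, 55.2 and 56.1 CPM in wild-type libraries. The fold change was -1.79 (SE 0.14) in *nonstop* and -0.21 (95% interval -0.49 to 0.08) in *sgf11*. *Timp* lies within the span of *Syn*, which had a log2 fold change of 0.11 (FDR = 0.51). *Tig*, which encodes the integrin ligand Tiggrin, had 44.7, 29.7, 42.1 and 42.8 CPM in *nonstop*, 62.0, 86.2, 86.2 and 92.3 CPM in *sgf11* and 101, 113, 112 and 109 CPM in wild-type libraries. For *Tig* the groups did not overlap, with *sgf11* between, and its *sgf11* fold change of -0.41 had a 95% interval of -0.69 to -0.14, which leaves 0 outside.

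*Dronc*, the initiator caspase gene, had 20.3, 16.8, 20.1 and 21.1 CPM in *nonstop*, 37.3, 41.0, 34.8 and 29.9 CPM in *sgf11* and 50.4, 46.3, 34.8 and 39.0 CPM in wild-type libraries. Its log2 fold change was -1.12 (SE 0.13) in *nonstop* and -0.26 (95% interval -0.53 to 0.01) in *sgf11*. The *nonstop* libraries were below all others. *Indy*, which encodes a citrate transporter, had 112, 141, 90.0 and 104.5 CPM in *nonstop*, 214, 232, 207 and 158 CPM in *sgf11* and 202, 211, 226 and 227 CPM in wild-type libraries, which gives -0.95 (SE 0.13) on the log2 scale in *nonstop* and -0.10 (95% interval -0.37 to 0.18) in *sgf11*. *NaPi-T*, a phosphate cotransporter gene, had a log2 fold change of -1.22 (SE 0.16) in *nonstop* and -0.34 (95% interval -0.67 to -0.01) in *sgf11*. The remaining lower genes were *GILT2*, a lysosomal thiol reductase gene (-1.56), the lipid droplet gene *sturkopf* (-0.93), the lipid transfer gene *Start1* (-0.90), the septate junction gene *crim* (-0.90), *CG9691* (-0.74), *Targ2* (-0.56), the histone chaperone gene *asf1* (-0.45), the SAGA gene *Spt20* (-0.41) and *Ubi-p5E* (-1.01). *Spt20* and *asf1* were the smallest of these changes, and *asf1* was the gene whose *nonstop* libraries overlapped the wild-type libraries, at 18.3 to 25.1 CPM against 23.4 to 32.9 CPM. *sturkopf* overlaps *Ctr9*, which was itself called lower (-0.53).

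Of the 22 selective genes that were higher in *nonstop*, several act in signaling and in cell division. *Notum* encodes a secreted enzyme that inactivates Wnt ligands and had 25.8, 33.1, 23.7 and 22.3 CPM in *nonstop*, 9.97, 13.2, 9.82 and 12.3 CPM in *sgf11* and 8.01, 11.2, 10.7 and 7.58 CPM in wild-type libraries. Its *nonstop* libraries lay above all others, with a log2 fold change of 1.48 (SE 0.16) in *nonstop* and 0.27 (95% interval -0.10 to 0.63) in *sgf11*. *DAT*, the dopamine transporter gene, had 26.1, 34.0, 34.3 and 39.9 CPM in *nonstop*, 17.9, 10.2, 10.7 and 7.25 CPM in *sgf11* and 6.74, 9.22, 10.5 and 8.63 CPM in wild-type libraries (log2 fold change 1.94, SE 0.21, in *nonstop* and 0.42, 95% interval -0.06 to 0.90, in *sgf11*). *pnt*, which encodes an ETS factor needed in glial development, had a log2 fold change of 0.64 in *nonstop* and 0.03 (95% interval -0.22 to 0.29) in *sgf11*.

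*Eip63E*, a cyclin-dependent kinase gene, had 264, 226, 234 and 235 CPM in *nonstop*, 124, 121, 138 and 129 CPM in *sgf11* and 132, 151, 167 and 141 CPM in wild-type libraries. *pbl*, whose product is needed for cytokinesis, had 144, 146, 147 and 115.4 CPM in *nonstop*, 75.3, 77.8, 79.8 and 69.5 CPM in *sgf11* and 78.1, 88.5, 89.0 and 84.8 CPM in wild-type libraries. In both genes the *nonstop* libraries were above all others, and the *sgf11* fold changes of -0.21 (95% interval -0.41 to -0.01) and -0.17 (95% interval -0.38 to 0.03) lay on the other side of 0 from the *nonstop* changes of 0.70 and 0.69. *fwe*, known for its part in cell competition, had 183, 195, 176 and 161 CPM in *nonstop*, 120, 122, 143 and 127 CPM in *sgf11* and 107, 115.3, 110 and 109 CPM in wild-type libraries, with a log2 fold change of 0.70 (SE 0.09) in *nonstop* and 0.21 (95% interval 0.02 to 0.40) in *sgf11*. All *sgf11* libraries of *fwe* lay above all wild-type libraries, though the *sgf11* change was not called. *Tie*, a receptor tyrosine kinase gene (1.53), the carboxylesterase gene *alpha-Est7* (1.44), *CG16854* (2.51), *CG5404* (1.88), *CG2818* (0.62), the cuticle gene *Cpr51A* (1.27), the ABC transporter gene *Mrp4* (0.55) and *GstD1* (0.33) belong to the same group. So do *Hsp70Bc*, given above, whose *sgf11* change of 0.50 has a 95% interval of 0.02 to 0.97, and *bora*, which encodes an activator of Aurora kinase, and *ry*, whose values are given below with those of their neighbors. The rest were *mtgo* (0.495), *CG31815* (0.53), which overlaps *mtgo*, and *CR40734* (0.72), *CR41583* (0.64) and *CR40766* (0.54), which have no arm in the annotation. *CR41583* averaged 31610 ± 4839 CPM in *nonstop*, 18070 ± 1301 CPM in *sgf11* and 20300 ± 3277 CPM in wild-type glia (SD, n = 4 each).

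Only part of the 37 genes kept all of these properties under other settings. Across 21 alternative settings of scaling, filter, test, threshold or libraries, which leave out the narrower limit on *sgf11*, *Dronc*, *Eip63E*, *Indy*, *Timp*, *Ubi-p5E* and *pbl* kept them in every one, and 15 genes lost them in at most 1, *Lasp* and *Notum* among them. A setting that left a gene untested counts as a loss. For *Lasp* and *Notum* the loss was of this kind, by the filter at a mean log2 CPM of 4.5. With the limit at 0.25, *Dronc* at -0.26 in *sgf11* falls outside. *Spt20* lost them in 16, *crim* in 14 and *asf1* in 12 settings. Without *sgf11* library 2 or 3 the higher group had 14 genes instead of 22.

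**Figure D3:**
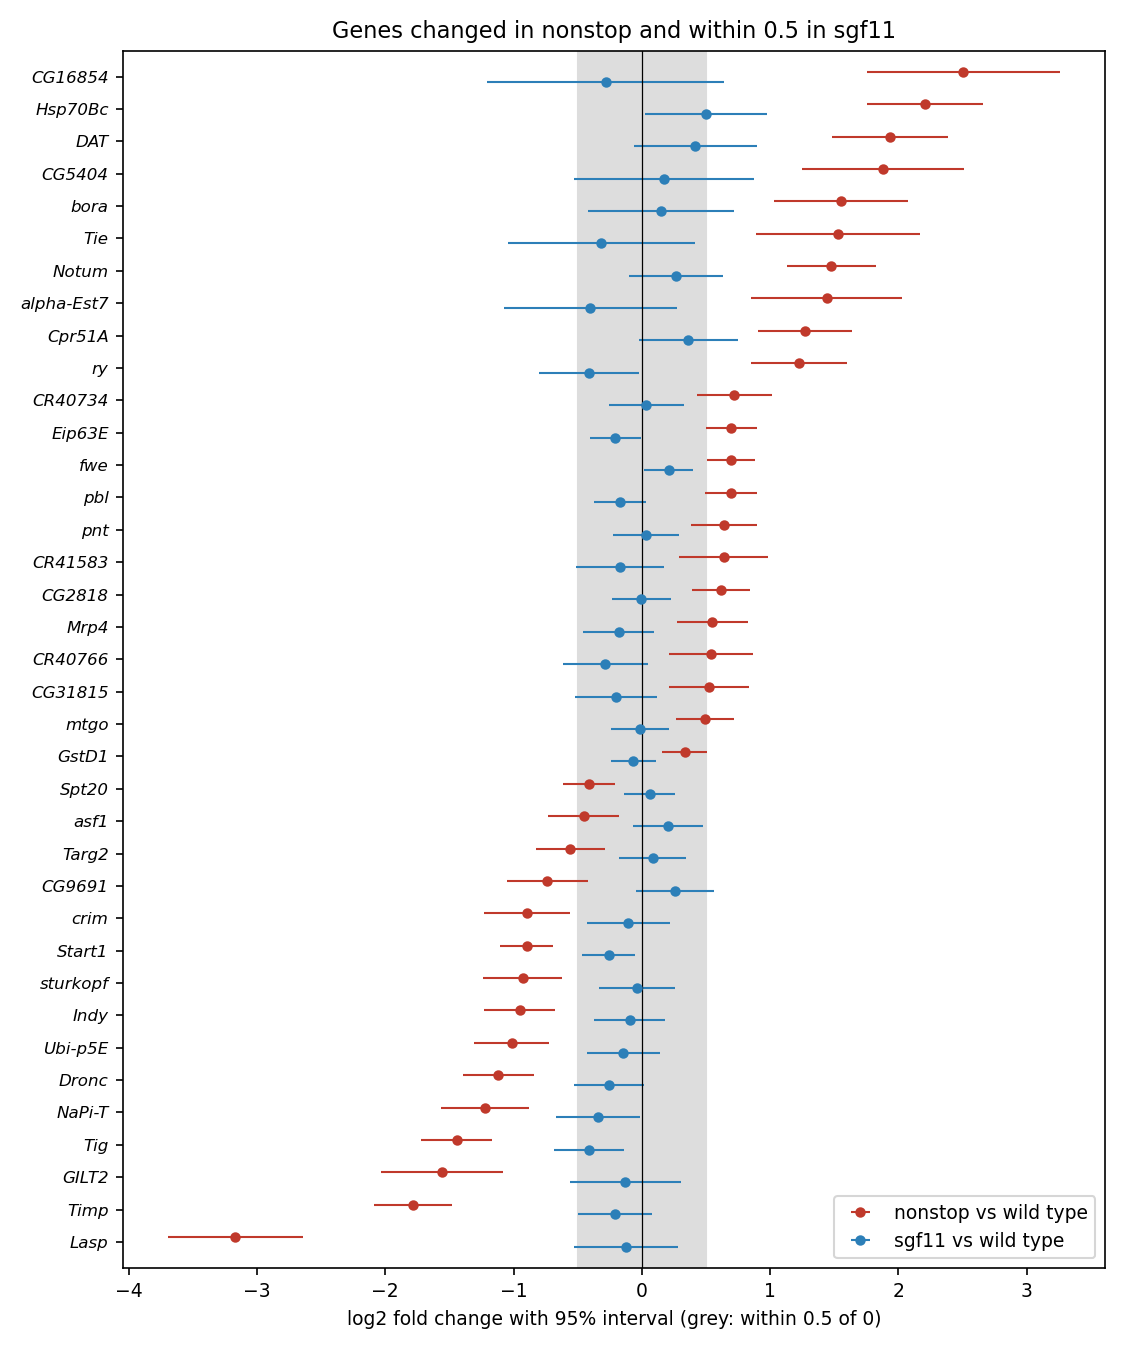
Log2 fold change over wild type (horizontal axis) with its 95% interval for the 37 selective genes (rows), in *nonstop* and in *sgf11*. The grey band spans 0.5 to each side of 0, the limit that the *sgf11* value had to meet. *Lasp* stands lowest at -3.17 and *CG16854* highest at 2.51 in *nonstop*.

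A separate reading asked only that a gene called in *nonstop* have the whole 95% interval of its *sgf11* fold change within 0.5 of 0, with no demand on the calls in *sgf11* or between the mutants. This was met by 214 genes (2.15% of those tested), 77 higher and 137 lower, and 18 of them are among the 37 above. The count was 119 without *nonstop* library 4, 132 without *sgf11* library 2, and 99 and 108 without wild-type library 2 and 4. Their changes in *nonstop* were small, with a median size of 0.454 on the log2 scale against 0.866 over all called genes, and *Timp* and *Ubi-p5E* were the 2 over 2-fold. The set holds 10 cytosolic ribosomal protein genes, 9 of them lower in *nonstop*, such as *RpL7* (-0.47, and -0.24 with a 95% interval of -0.46 to -0.02 in *sgf11*). The engulfment receptor gene *drpr*, through which glia clear debris, averaged 240 ± 34.4 CPM in *nonstop*, 309 ± 35.5 CPM in *sgf11* and 324 ± 31.5 CPM in wild-type glia (SD, n = 4 each), a log2 fold change of -0.43 (FDR = 0.0059) in *nonstop* and -0.07 (95% interval -0.32 to 0.18) in *sgf11*. Neither *RpL7* (FDR = 0.27) nor *drpr* (FDR = 0.10) passed the direct test between the mutants.

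**Figure D4:**
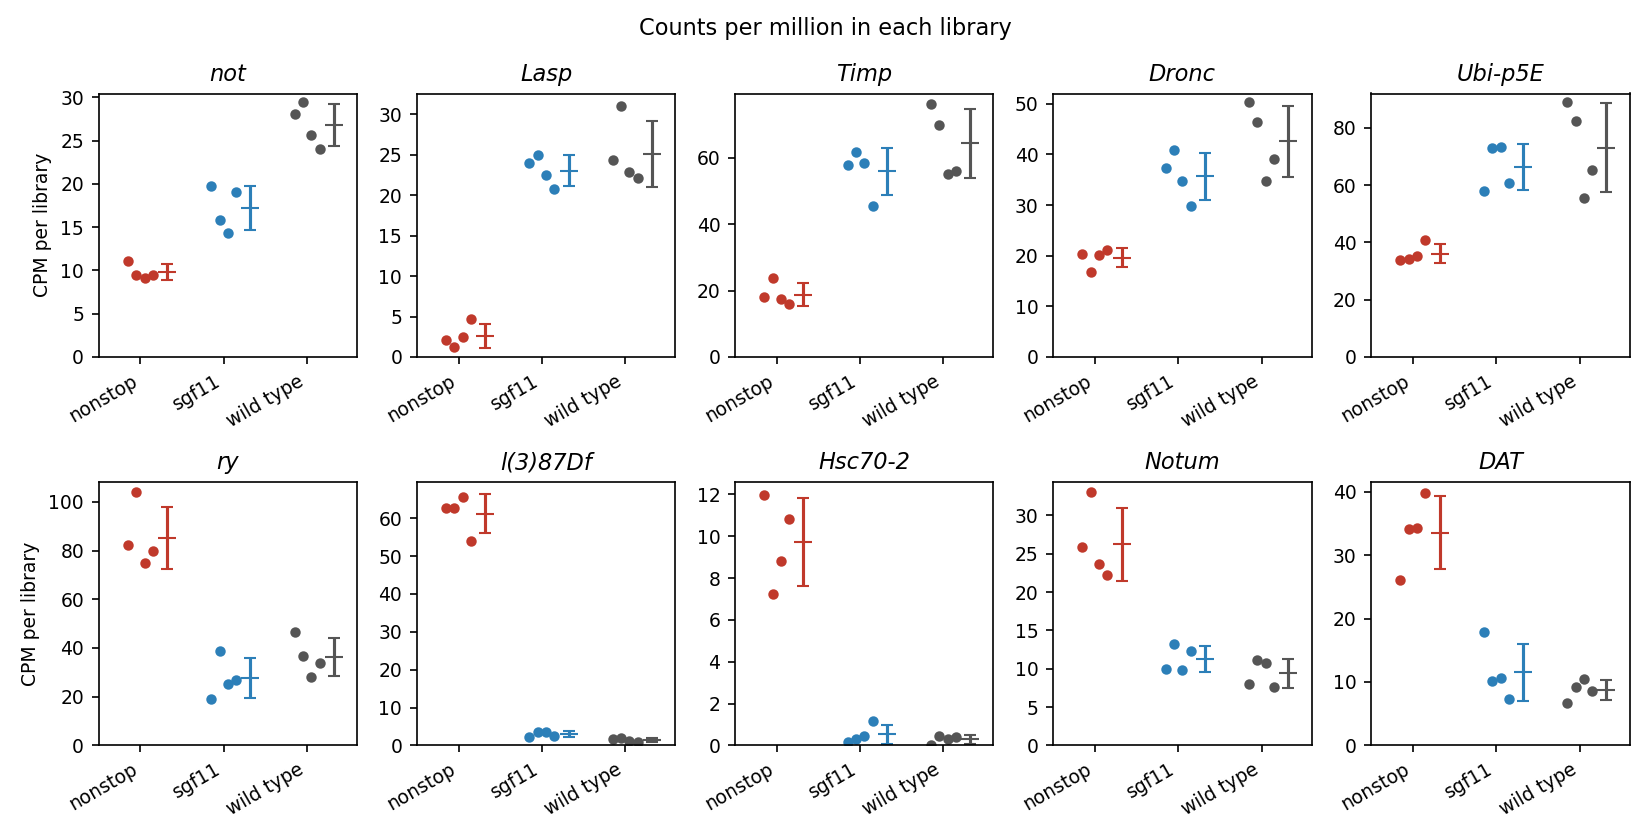
CPM per library (vertical axes) in *nonstop*, *sgf11* and wild-type glia for 10 genes, with 1 point per library and the group mean ± SD (n = 4). *Lasp*, *Timp*, *Dronc* and *Ubi-p5E* are lower in all 4 *nonstop* libraries than in any other library, and *Notum* and *DAT* are higher in all 4.

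The direct comparison of *nonstop* with *sgf11* called 210 genes (2.11%), 82 higher in *nonstop* (0.823%) and 128 lower (1.28%). By their calls against wild type, 55 were called in *nonstop* alone, 73 in *sgf11* alone, 60 in both mutants in the same direction, 7 in both in opposite directions and 15 in neither. Of the 1072 genes called in *nonstop* and not in *sgf11*, the same 55 differed between the mutants, so for the others a missed call in *sgf11* is not a difference. Of the 60 genes that moved the same way, 33 had the larger change in *nonstop*, 15 higher and 18 lower. *CG9416*, which has no role given in the files, had 2.08, 3.20, 2.48 and 2.89 CPM in *nonstop*, 24.6, 20.5, 12.8 and 12.9 CPM in *sgf11* and 98.4, 135, 153 and 102 CPM in wild-type libraries. *CG5002* had 1.22, 1.25, 0.688 and 0.935 CPM in *nonstop*, 9.69, 12.1, 7.04 and 4.66 CPM in *sgf11* and 61.0, 46.8, 37.0 and 44.3 CPM in wild-type libraries. Both fell in steps, with no overlap between any of the groups.

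Transport genes were among those with the larger change in *nonstop*, and the genes of this paragraph were chosen after their values were seen. *Ctns*, which encodes the lysosomal cystine transporter, had 27.6, 37.9, 28.09 and 27.0 CPM in *nonstop*, 72.1, 83.1, 85.0 and 59.5 CPM in *sgf11* and 119, 119, 86.4 and 101 CPM in wild-type libraries (log2 fold change -1.82 against -0.50 in *sgf11*). *Ncc69*, which encodes a sodium-potassium-chloride cotransporter used by glia, had 120, 154, 126 and 141 CPM in *nonstop*, 200, 278, 240 and 193 CPM in *sgf11* and 297, 324, 308 and 296 CPM in wild-type libraries (log2 fold change -1.18 against -0.43 in *sgf11*). The groups did not overlap for either gene, with *sgf11* nearer to wild type. *NfI*, the nuclear factor I gene on chromosome 4 (2.07 in *nonstop* and 1.26 in *sgf11*), and *Amph*, the amphiphysin gene (1.99 and 1.27), were raised more in *nonstop*.

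The 7 genes called in opposite directions include *Cht5*, a chitinase gene, with 9.42, 10.01, 5.51 and 12.5 CPM in *nonstop*, 82.6, 91.9, 102 and 63.4 CPM in *sgf11* and 29.6, 28.9, 35.2 and 22.0 CPM in wild-type libraries. On the log2 scale the change was -1.60 in *nonstop* glia and 1.55 in *sgf11* glia. *IntS12*, an Integrator subunit gene, was higher in *nonstop* (0.72) and lower in *sgf11* (-1.06).

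Glial genes did not move together. Of 24 glial markers, 7 rose and 7 fell in *nonstop*, against 5 and 2 in *sgf11*, and the balance turned in 14 of the alternative settings. In *nonstop* each share was 29.2%, against 18.7% higher and 17.0% lower over all genes. The astrocyte genes *Gat*, a GABA transporter, and *alrm* rose. *Gat* had 1556, 945, 898 and 745 CPM in *nonstop*, 789, 1062, 1205 and 1093 CPM in *sgf11* and 298, 348, 417 and 644 CPM in wild-type libraries (log2 fold change 1.28, SE 0.23, FDR = 0.00025). The highest wild-type library was still below the lowest *nonstop* library. *alrm* had a log2 fold change of 1.11 in *nonstop* and 1.42 in *sgf11*. *Galphai* (-0.89), the barrier receptor gene *moody* (-0.54), *spin* (-0.60) and *loco* (-0.40) fell. Of 21 septate junction genes, which form the blood-brain barrier, 10 fell and 2 rose (median log2 fold change -0.29), against 7 and 2 in *sgf11*. The *nonstop* shares were 47.6% and 9.5%, against 17.0% and 18.7% of all genes. *M6* had 21.4, 34.5, 26.6 and 22.4 CPM in *nonstop*, 36.3, 37.6, 33.3 and 26.8 CPM in *sgf11* and 55.7, 59.3, 57.3 and 49.7 CPM in wild-type libraries (log2 fold change -1.09, SE 0.14, FDR = 8.3e-06). *Lac* (-0.84), *cold* (-0.84), *Nrt* (-0.83), *Cont* (-0.62) and *Nrx-IV* (-0.52) fell as well, while the cell polarity genes *l(2)gl* (0.82) and *dlg1* (0.52) rose.

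Matrix genes were divided. Of 18 genes of the basement membrane and matrix, 7 fell (38.9%, against 17.0% of all genes) and 4 rose (22.2%, against 18.7%) in *nonstop*, and in *sgf11* 2 fell and 4 rose, against 14.1% and 16.4% of all genes. With *Timp* and *Tig*, those that fell were the papilin gene *Ppn* (-1.75), the collagen XV/XVIII gene *Mp* (-1.17), the metalloproteinase gene *Mmp1* (-0.75), *SPARC* (-0.64) and the glypican gene *dally* (-0.37). Those that rose were the nidogen gene *Ndg* (1.56), the glypican gene *dlp* (1.19), the laminin gene *LanA* (1.12) and *wb* (0.82), which encodes another laminin chain. *Ndg* had 68.9, 67.8, 47.4 and 52.0 CPM in *nonstop*, 69.7, 95.6, 98.5 and 69.6 CPM in *sgf11* and 19.9, 25.3, 12.8 and 22.2 CPM in wild-type libraries (FDR = 3.4e-06). All mutant libraries were above all wild-type libraries. With normalization factors from the more abundant genes, or with genes of low mean level left out, the list no longer had more lower than higher members.

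Many genes of neuronal excitability were called higher in *nonstop* glia beside the higher sum of neuronal markers given above, and the part of neuronal RNA in these values was not tested. Of 39 neurotransmitter receptor genes, 18 rose (median log2 fold change 0.67), and of 33 ion channel genes 20 rose and 1 fell (median 0.60), against 18.7% of all genes. With library size alone, 10 receptor and 12 channel genes rose, and with factors from the more abundant genes 22 and 24. Over all alternatives the counts were 9 to 26 and 6 to 25, where the filter at a mean log2 CPM of 4.5 leaves members untested. In *sgf11* 15 receptor genes and 20 channel genes rose. *NaCP60E*, a sodium channel gene, had 169, 153, 198 and 188 CPM in *nonstop*, 130, 119, 148 and 130 CPM in *sgf11* and 39.6, 41.6, 47.6 and 47.7 CPM in wild-type libraries (log2 fold change 2.003, SE 0.11, FDR = 4.6e-10). *mGluR*, the metabotropic glutamate receptor gene, had 33.2, 39.6, 51.5 and 49.5 CPM in *nonstop*, 47.5, 31.7, 36.5 and 50.9 CPM in *sgf11* and 13.02, 14.5, 18.6 and 19.2 CPM in wild-type libraries (log2 fold change 1.42, SE 0.17, FDR = 5.0e-06). Every *nonstop* library was above every wild-type library for both genes. The GABA receptor family gene *Grd* (2.17), the octopamine receptor gene *Octbeta3R* (1.70) and the potassium channel genes *KCNQ* (1.69) and *Shawl* (1.61) rose as well. The serotonin receptor gene *5-HT2A* was the receptor gene that differed between the mutants, at 3.57 ± 0.385 CPM in *nonstop*, 0.969 ± 0.392 CPM in *sgf11* and 2.08 ± 0.444 CPM in wild-type glia (SD, n = 4 each, FDR = 0.0015 for *nonstop* against *sgf11*).

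Recognition and guidance genes differed. Of 31 Dpr and DIP genes, cell surface proteins that pair neurons with their partners, 10 rose and 1 fell in *nonstop* (median log2 fold change 0.48), and 1 to 15 rose over the alternatives. Over the scalings alone 5 to 14 rose. The 32.3% that rose stands against 18.7% of all genes. *DIP-alpha* (1.35) was among those that rose and *dpr17* (-1.52) was the one that fell. Of 43 axon guidance genes, 5 rose and 7 fell, shares of 11.6% and 16.3% that do not exceed the 18.7% and 17.0% of all genes, and the balance turned in 4 settings. Of 27 neuroblast and temporal patterning genes, 10 fell (3 to 12 over the alternatives) and 4 rose beside the lower sum of neuroblast markers, whose part was not tested. These are 37.0% and 14.8%, against 17.0% and 18.7% of all genes. Over the scalings alone 5 to 11 fell. *slp1* (-1.13) and *tll* (-1.02) fell, while *chinmo* (1.31) and *cas* (0.94) rose.

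Steroid response genes were mostly lower. Ecdysone drives molting through a cascade of nuclear receptors, and of 23 ecdysone response genes 13 fell and 3 rose in *nonstop* (median log2 fold change -0.67), against 12 and 2 in *sgf11* (median -0.86). The nuclear receptor genes *Hr3* (-2.75), *Hr4* (-2.11), *Eip75B* (-0.91) and *Eip78C* (-3.39) fell, and *ftz-f1* (1.32) and *Hr38* (1.32) rose. *Eip78C* had 2.81, 4.31, 2.203 and 5.36 CPM in *nonstop*, 10.4, 8.19, 7.77 and 7.76 CPM in *sgf11* and 35.6, 48.2, 41.8 and 33.8 CPM in wild-type libraries (FDR = 1.8e-09). The groups did not overlap, and the difference between the mutants was called (log2 fold change -1.19, FDR = 0.0040). The salivary gland gene *Eig71Ee* had 0, 0.417, 0.275 and 0.425 CPM in *nonstop*, 0.185, 0, 6.75 and 14.4 CPM in *sgf11* and 43.8, 68.3, 2.13 and 2.95 CPM in wild-type libraries, so 2 wild-type libraries carried most of its signal. The age of the larvae within the wandering stage is not given by genotype, and the developmental time of each group and its genotype cannot be told apart.

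Among signaling pathways, every call in the Notch list was lower and every call in the JAK-STAT list was higher. Of 27 Notch pathway genes 11 fell in *nonstop* and 11 in *sgf11* (median log2 fold change -0.43 and -0.52), and the *nonstop* count was 4 to 14 over the alternatives. Over the scalings alone it was 6 to 12. The 40.7% that fell in *nonstop* stands against 17.0% of all genes. *E(spl)m2-BFM*, a target of Notch, had 5.63, 5.28, 6.75 and 5.87 CPM in *nonstop*, 6.37, 2.73, 4.55 and 4.14 CPM in *sgf11* and 25.2, 33.9, 25.5 and 19.8 CPM in wild-type libraries (log2 fold change -2.15, SE 0.20, FDR = 2.3e-07). The protease gene *kuz* (-0.87) and the receptor gene *N* (-0.32) fell too. Of 12 JAK-STAT genes 7 rose (58.3%, against 18.7% of all genes, median 0.66). This count was 2 to 7 across the alternative settings and 5 to 7 over the scalings alone. They include the cytokine genes *upd2* (1.51) and *upd1* (1.31), the feedback inhibitor *Socs36E* (1.16) and the stress peptide gene *TotM* (3.21), which was near the filter at 0.973 to 1.93 CPM in *nonstop* libraries. *Socs36E* had 93.3, 86.2, 114.8 and 105 CPM in *nonstop*, 73.4, 92.7, 102 and 86.5 CPM in *sgf11* and 29.8, 48.9, 46.2 and 53.9 CPM in wild-type libraries (FDR = 1.0e-05). Its mutant libraries were all above the wild-type libraries. The relaxin-like gene *Ilp8*, which delays metamorphosis when tissue is damaged, had 5.50, 3.33, 5.78 and 6.38 CPM in *nonstop*, 14.2, 20.2, 10.1 and 25.1 CPM in *sgf11* and 0.182, 0.220, 0 and 0.105 CPM in wild-type libraries. It was higher in both mutants and lower in *nonstop* than in *sgf11* (log2 fold change -1.71, FDR = 0.00081). The insulin-like gene *Ilp6* of surface glia fell (-1.47).

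Cytochrome P450 enzymes and glutathione S-transferases act in detoxification. Of 55 cytochrome P450 genes 31 rose and 4 fell in *nonstop* (median log2 fold change 0.98), against 26 and 2 in *sgf11* (median 0.89), and of 31 glutathione S-transferase genes 11 rose (35.5%) and 5 fell (16.1%), against 18.7% and 17.0% of all genes. Over the alternatives 7 to 35 P450 genes and 2 to 14 transferase genes rose. Over the scalings alone the counts were 31 to 34 and 10 to 14. *Cyp6a20* had 23.7, 22.6, 19.4 and 19.8 CPM in *nonstop*, 10.4, 11.98, 9.38 and 8.15 CPM in *sgf11* and 2.82, 3.73, 2.996 and 1.79 CPM in wild-type libraries (log2 fold change 2.91, SE 0.19, FDR = 3.3e-09). *Cyp313b1* averaged 16.7 ± 7.44 CPM in *nonstop*, 1.85 ± 0.259 CPM in *sgf11* and 0.903 ± 0.168 CPM in wild-type glia (SD, n = 4 each, 4.18 on the log2 scale in *nonstop* and 1.04 in *sgf11*). Both were higher in *nonstop* than in *sgf11* by the direct test. Members of the Cyp6a cluster are similar in sequence. As for the Hsp70 copies, their levels rest on reads placed on a single member, and how well these were placed was not tested. *Cyp6a19* drew no reads in wild type. Taking 3 counts over the 4 libraries as the most that 0 allows, it was at least 23.2-fold higher in *nonstop* and at least 8.74-fold higher in *sgf11*, a limit that covers counting error only.

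Metabolic genes gave a mixed picture. Of the 13 mitochondrially encoded genes 7 rose in *nonstop* (median log2 fold change 0.71), against 3 in *sgf11* (median 0.45). The mitochondrial share of gene counts given above overlapped between *nonstop* (11.67 to 16.07%) and wild-type libraries (10.95 to 13.06%) and reached highest in *sgf11* (19.94%). The 53.8% that rose in *nonstop* stands against 18.7% of all genes. *mt:ND4* had 7123, 5912, 5954 and 4406 CPM in *nonstop*, 2606, 5376, 3400 and 2672 CPM in *sgf11* and 2329, 2166, 1600 and 2086 CPM in wild-type libraries (log2 fold change 1.52, SE 0.21, FDR = 2.0e-05). Its *nonstop* libraries overlapped those of *sgf11* and not those of wild type. Of 72 nuclear genes of oxidative phosphorylation, 6 rose and 1 fell, and the median was 0.003. In glycolysis *Ldh* (1.22), *Ald1* (1.17) and *Hex-A* (0.76) rose and *Pfk* (-1.17) fell, out of 11. *apolpp*, the lipoprotein gene that fat body and some glia express, had 19390, 26380, 16630 and 18610 CPM in *nonstop*, 12590, 12780, 16000 and 11970 CPM in *sgf11* and 2666, 2868, 3081 and 2717 CPM in wild-type libraries (log2 fold change 2.84, SE 0.16, FDR = 1.5e-09). The 6 fat body markers did not follow it, with a sum of 32.9 to 51.3 CPM in *nonstop*, 73.2 to 148 CPM in *sgf11* and 65.0 to 143 CPM in wild-type libraries.

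Position on the chromosomes was examined because all alleles and the labelling transgenes lie on chromosome 3, while the wild-type larvae carried the balancer there. Genes called in *nonstop* against wild type were 36.5% of those on chromosome 3 and 34.8% of those on arms 2L, 2R and X. Genes called between the mutants were 2.98% on chromosome 3 (126 of 4225) and 1.09% on 2L, 2R and X (56 of 5136). Of the 34 selective genes with a position, 23 lie on chromosome 3, which is 0.544% of its genes against 0.214% on 2L, 2R and X. The background of each chromosome 3 and the effect of its allele cannot be told apart. On the small chromosome 4, 39 of 83 genes rose and 4 fell in *nonstop* (median log2 fold change 0.40), and 34 rose and 2 fell in *sgf11* (median 0.38). The shares of all genes were 18.7% higher and 17.0% lower in *nonstop*, and 16.4% and 14.1% in *sgf11*.

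Several genes next to *not* and *ry* had higher levels in *nonstop* than in the other groups. Of the 10 tested genes on each side of *not* in gene order, 8 rose and 3 fell in *nonstop*, 6 rose and 3 fell in *sgf11*, and *Sgf11* itself is the gene at place 8 on one side. Over all genes 18.7% rose and 17.0% fell in *nonstop*, and 16.4% and 14.1% in *sgf11*. Between the mutants 4 of the 20 neighbors were called, against 2.11% of all genes, namely *CG18233*, *bora*, *Sgf11* and *CR34254*. *Sgf11*, the gene mutated in *sgf11* larvae, averaged 3.87 CPM in *nonstop*, 0.069 CPM in *sgf11* and 4.73 CPM in wild-type glia. *CR34254* beside it averaged 1.565, 0 and 0.676 CPM. Neither was called in *nonstop* against wild type, and both were called lower in *sgf11*. *CG18233* had 8.56, 13.5, 6.88 and 8.67 CPM in *nonstop*, 0.554, 0.152, 1.17 and 0.647 CPM in *sgf11* and 0 CPM in every wild-type library, which is at least 123-fold higher in *nonstop*. It overlaps *CG4174* on the opposite strand, and because the counting ignored strand, reads of either gene may have counted for the other. *bora*, the gene beside *not*, had 7.34, 6.81, 6.06 and 6.72 CPM in *nonstop*, 2.49, 2.73, 2.35 and 2.59 CPM in *sgf11* and 2.55, 3.51, 1.74 and 1.37 CPM in wild-type libraries (log2 fold change 1.55, with 0.15, 95% interval -0.42 to 0.72, in *sgf11*). Its *nonstop* libraries were above all others, as were those of *MYPT-75D*, a myosin phosphatase targeting gene, at 44.1 to 55.2 CPM in *nonstop*, 32.6 to 40.2 CPM in *sgf11* and 15.3 to 17.8 CPM in wild-type libraries. *MYPT-75D* rose in *sgf11* too (1.14, and 1.60 in *nonstop*), and the direct test between the mutants did not pass for it (FDR = 0.015).

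The genes around *ry*, the xanthine dehydrogenase gene, were chosen after their values were seen. *ry* had 82.1, 103.9, 75.03 and 79.7 CPM in *nonstop*, 19.2, 38.7, 25.4 and 27.1 CPM in *sgf11* and 46.6, 36.6, 27.9 and 34.0 CPM in wild-type libraries (log2 fold change 1.23, with -0.41, 95% interval -0.80 to -0.02, in *sgf11*). Its level was thus highest in the larvae that carry ry506 together with the *rosy* transgene of the PZ insertion, and from which copy the reads came was not tested. *l(3)87Df*, the gene beside it, had 62.6, 62.7, 65.7 and 53.9 CPM in *nonstop*, 2.12, 3.64, 3.52 and 2.46 CPM in *sgf11* and 1.73, 2.09, 1.16 and 0.947 CPM in wild-type libraries (log2 fold change 5.36, SE 0.22, FDR = 2.8e-12). *Hsc70-2*, a member of the Hsp70 family, had 11.99, 7.23, 8.81 and 10.8 CPM in *nonstop*, 0.185, 0.303, 0.440 and 1.17 CPM in *sgf11* and 0, 0.439, 0.290 and 0.421 CPM in wild-type libraries (log2 fold change 5.07, SE 0.57, FDR = 1.3e-07). In both genes the *nonstop* libraries stood far above the others. Of the 6 tested genes on each side of *ry*, 4 rose and 3 fell in *nonstop*, 2 rose and 4 fell in *sgf11*, and 4 differed between the mutants, namely *l(3)87Df*, *CG11668*, *Hsc70-2* and *CG31157*. Over all genes 18.7% rose and 17.0% fell in *nonstop*, 16.4% and 14.1% in *sgf11*, and 2.11% differed between the mutants.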

How the data were processed

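RNA from GFP-enriched nuclei was amplified (Ovation V2) and all 12 libraries were sequenced in 1 pool. The deposited values are raw counts per gene, which the authors made with Trimmomatic 0.32, TopHat2 2.0.13 with Bowtie2 2.2.4 on the BDGP5 genome, and HTSeq 0.6.1 without regard to strand. Entries that name no gene held 96.1 to 96.7% of all entries and were left out of library sizes and tests. Deposited tables with the authors' own comparisons (log2 fold change, mean log2 CPM, p and FDR) were not used.

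The filter asked for over 1 CPM in 4 or more libraries of the 12. One model with 3 groups was fitted across all 9966 genes with edgeR 4.0.16 (TMM normalization, quasi-likelihood test, R 4.3.3), and calls have an FDR under 0.01 (Benjamini-Hochberg over all genes). Intervals are Wald intervals from the fit. Lists are described by counts and medians. A check on simulated data used the same spread for every gene and changes in *nonstop* alone. These data differ from that setting, so nothing is drawn from the check. The members and lists were chosen with earlier results of these data known. Names, arms and gene order come from the Ensembl annotation of BDGP6, which named 9476 of the genes tested. For 48 more the name is the one the study used. Genes were named by rule, and the text gives only part of the genes so named. The rules took the module's genes that passed the filter, *ry*, *repo* and *elav*, the 10 highest and 10 lowest changes, and called genes next to *not*. They also took the 15 selective genes in each direction with the lowest p between the mutants, and up to 4 called members per list with the largest change. Other genes, such as further members of a list, the opposite and the graded genes and those around *ry*, were chosen after their values were seen. Alternatives were other scalings, filters, tests and thresholds, each library left out and the replicate number as a block.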

Additional observations from a re-analysis of the deposited data

Results flagged for a closer look

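The effect of the mutation over wild type differed between *nonstop* and *sgf11* for 82 genes that were higher in *nonstop* and 128 that were lower, by the direct test in the same model (edgeR's quasi-likelihood test, FDR under 0.01). Among the 195 gene and group combinations checked for a library far from the other 3 of its group, 10 stood out, where chance gives about 1 in 20. In *nonstop*, *pbl* was low in library 4 (115.4 CPM, with the next library at 143.8 CPM), *Tig* was low in library 2 (29.74 CPM, next 42.13 CPM) and *Spt20* was low in library 3 (30.43 CPM, next 34.6 CPM). In *sgf11*, *CG13566* was low in library 1 (4.615 CPM, next 13.78 CPM), *Spt20* was low in library 4 (44.0 CPM, next 47.78 CPM), *CG42495* was low in library 3 (2.933 CPM, next 3.877 CPM) and *GNBP2* was low in library 2 (1.517 CPM, next 2.861 CPM). Also in *sgf11*, *Cpr51A* was high in library 1 (9.415 CPM, next 6.219 CPM) and *NaPi-T* was high in library 3 (15.1 CPM, next 12.44 CPM). In wild type, *sturkopf* was low in library 3 (23.87 CPM, next 27.37 CPM).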

How the results depend on the processing

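No named gene reversed its direction, and 202 of 250 kept their call under each alternative that tested them. Above a mean log2 CPM of 4.5 only part of them was tested, of which 119 kept the call and 5 lost it. With DESeq2 the genes higher in *nonstop* than in *sgf11* numbered 155 and the selective genes 39 higher and 23 lower, and with edgeR's exact test 153, 38 and 23. Normalization factors from the more abundant genes left 1086 genes lower in *nonstop* than in wild type. With library size alone, 12 selective genes were higher and 126 called genes were within 0.5 of 0 in *sgf11* by interval. Above a mean log2 CPM of 4.5, 952 genes were higher and 823 lower than in wild type, and 40 higher and 57 lower than in *sgf11*. At an FDR of 0.05 these last counts were 173 and 213, the selective genes 47 higher and 29 lower, and the genes within the interval 479. With a limit of 0.25 in *sgf11*, 13 selective genes were higher. The cause of these shifts was not tested beyond the change of genes, scaling or threshold itself. With 1 library left out, the counts against wild type ranged from 1576 to 1941 higher and 1342 to 1670 lower, those against *sgf11* from 58 to 91 higher and 78 to 130 lower, the selective genes from 14 to 28 higher and 10 to 17 lower, and the genes within the interval from 99 to 200. The lower count against *sgf11* was 78 without *nonstop* library 4 and 81 without *sgf11* library 3. The higher selective count was 14 without *sgf11* library 2 or 3. The interval count was 119 without *nonstop* library 4, 132 without *sgf11* library 2, and 99 and 108 without wild-type library 2 and 4. Libraries with the same number did not deviate together (correlations -0.076 to 0.122 over 12 pairs), so the numbers do not pair them, and with the replicate number as a block 1797 genes were higher and 1668 lower than in wild type, 71 and 112 against *sgf11*, and the selective genes were 15 and 13. The exact test gives no interval, and a fit of the 2 groups alone gives no selective genes. Genes with few counts had wide intervals, so a missed call among them says little.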
